A study of Arabidopsis thaliana with 63 samples.

Results

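The transcriptome of Arabidopsis seedlings labelled h2a.w-2, a line mutated in the 3 genes of the histone variant H2A.W, was compared with that of wild-type (WT) seedlings of the Col-0 ecotype. The comparison covers all 29961 features of the deposited expression table. These are protein-coding genes, RefSeq pseudogenes (with transposable element (TE) genes among them), other RNA genes and TEs. The comparison rests on 6 of the 63 samples of the series, 3 WT and 3 labelled h2a.w-2. All plants were 10-day-old seedlings grown in long days without treatment, and rRNA-depleted total RNA was sequenced with a directional kit. The h2a.w-2 line is a triple mutant made by crossing hta6-2, a CRISPR-Cas9 allele with a frame shift in HTA6, with T-DNA insertion lines of HTA7 (GABI_149G05.01) and HTA12 (SAIL_667_D09). Only 1 such line was sequenced here, and no source says how many seedlings went into a library. The table holds group means of normalized counts (the authors' means, scaled by their size factors), and the reads of each library were worked back from these means for 29927 features. Levels below are normalized counts, always in the order of libraries A, B and C of a group. The letters only name libraries and pair none of them. A ratio is log2((h2a.w-2 mean + 1)/(WT mean + 1)), and 19708 features had a mean over both groups of at least 10, of which 19674 had library values and were tested.

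H2A.W is the plant H2A variant that marks heterochromatin, the condensed part of the genome rich in silent TEs and in methylated DNA. Arabidopsis encodes it in HTA6, HTA7 and HTA12. Most of the transcripts of a seedling come from euchromatin, and many of them follow the time of day, light, sugar supply, touch, cold and microbes, so that genes of one response tend to move together between seedling samples.

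Recovered reads ranged from 6090336 to 9839709 per library. The targeted genes were checked first. HTA7 was at 652, 640.1 and 647 in WT and at 99.2, 72.9 and 79.0 in h2a.w-2, and HTA6 was at 778, 761 and 913 in WT and at 279, 256 and 192 in h2a.w-2. HTA12 was at 79.6, 95.3 and 105 in WT and at 25.03, 100.0 and 24.0 in h2a.w-2. Library B of the group labelled h2a.w-2 thus held HTA12 transcript at the WT level, which goes against its label, while its HTA6 and HTA7 levels were as low as in libraries A and C. The libraries are therefore called the libraries labelled h2a.w-2. Library C labelled h2a.w-2 stood apart in another way. Among 13210 features with a mean of at least 100, 378 (2.86%) lay more than 2-fold from the median of the 6 libraries in it, against 31 to 191 in the other 5 libraries. Median ratios without library B or C are given for the main gene groups below. Leaf markers were abundant in every library, and their summed level over the 5 with library values ranged from 25440 to 31135 in WT and from 19714 to 27677 in h2a.w-2. No seed marker (4) or flower and pollen marker (6) reached a mean of 10, and SESA1, OLEO1 and VGD1 were at 0 in both groups. The summed level of 11 root markers was 1089, 1620.1 and 2180 in WT and 1367, 1056 and 1042 in h2a.w-2.

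Few transcripts were called different between the genotypes by the test across all features. With limma voom, an adjusted p under 0.05 and a log2 fold change beyond 1, 5 features rose (0.0254% of those tested) and 3 fell (0.0152%). With library quality weights the counts were 18 and 8, and with the libraries of h2a.w-1, the other mutant line, in the same fit they were 25 and 13. The count at an unadjusted p under 0.05 was 2288 (11.6%). In a description without a test, all 3 libraries labelled h2a.w-2 lay above all 3 WT libraries for 2022 features (10.3%) and under them for 2023 (10.3%). Such features are called separated here. With a change of at least 2-fold as well, 182 features were higher (0.925%) and 164 were lower (0.834%). Over the same features, leaving out h2a.w-2 library B gave 3130 above (15.9%) and 3180 under (16.2%), of which 243 (1.24%) and 207 (1.05%) by 2-fold. Leaving out library C gave 2635 (13.4%) and 2583 (13.1%), of which 171 (0.869%) and 147 (0.747%) by 2-fold. The 2-fold counts, with the minimum mean applied anew, moved furthest without h2a.w-2 library A (342 and 592), WT library A (294 and 461) and WT library B (259 and 273). Protein-coding genes made up 156 of the 182 higher and 155 of the 164 lower features. The median ratio over all features tested was 0.00. The 34 abundant features without library values had ratios between -0.26 and 0.45.

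**Figure D1:**
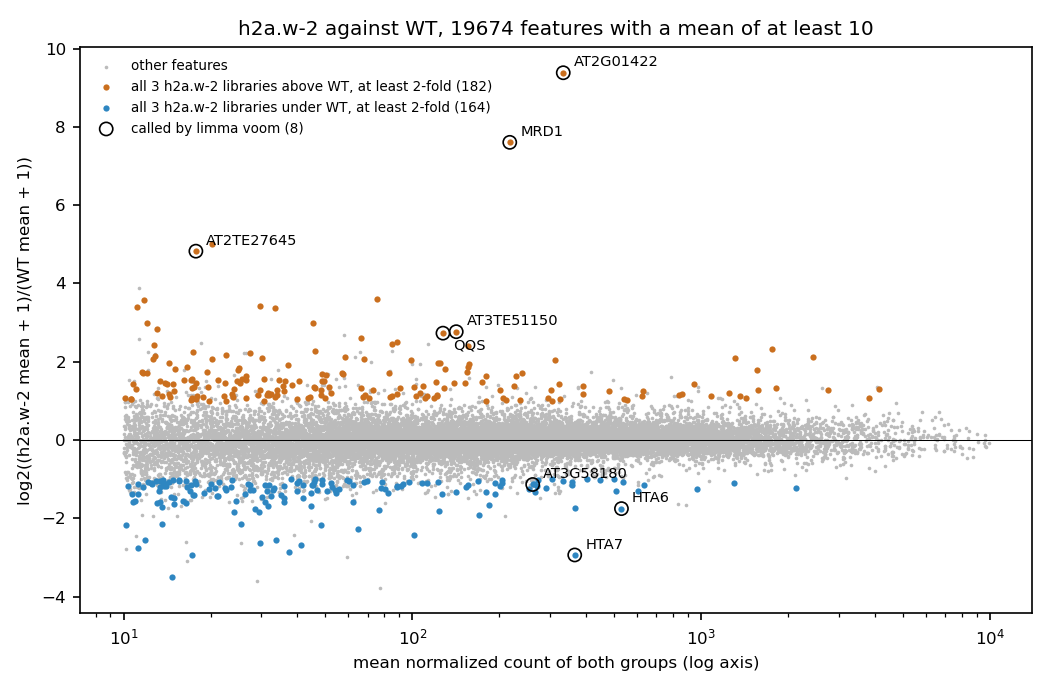
Each point is one of 19674 features. The horizontal axis is the mean normalized count of both groups on a log axis, and the vertical axis is the log2 ratio of h2a.w-2 over WT. Orange and blue points are the 182 and 164 features separated by at least 2-fold, and the 8 circled features passed limma voom. Nearly all points lie within 2-fold of 0, and AT2G01422 and MRD1 stand far above the rest.

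Of the 5 features that rose, 3 are genes. AT2G01422, annotated as an other RNA gene on chromosome 2 (chr2:183940-184734, RefSeq TAIR10.1), had no read in any WT library and normalized counts of 682, 635 and 681 in the h2a.w-2 group. Against 3 reads per WT library this was at least 231-fold higher (adjusted p = 8.18e-05, limma voom). MRD1 (chr1:19963047-19964712), named for its fall in a methionine-overaccumulating mutant, was at 1.64, 0.843 and 1.22 in WT and at 438, 399 and 464 in h2a.w-2, at least 151-fold higher (adjusted p = 0.000403, limma voom). These genes were silent or nearly so in each WT library and even in level across the h2a.w-2 group. QQS (chr3:12349047-12349933), an orphan gene that acts in the split of carbon between starch and protein, was at 41.01, 27.8 and 29.2 in WT and at 242, 214 and 212 in h2a.w-2 (log2 fold change 2.76 ± 0.20 (SE), adjusted p = 0.00306, limma voom). The TE AT3TE51150 on the same chromosome had 44.3, 32.0 and 30.4 in WT and 270.0, 236 and 238 in h2a.w-2, much like QQS in each library. Whether it shares reads with QQS was not tested. The TE AT2TE27645 had 1 read in the 3 WT libraries and 47.4, 31.8 and 26.8 normalized counts in h2a.w-2, at least 12.3-fold higher (adjusted p = 0.0227, limma voom). Without h2a.w-2 library B its adjusted p was 0.0763, and the other 4 features remained called. It also lost its call without WT library A, B or C (adjusted p = 0.0904, 0.128 and 0.178), as did QQS and AT3TE51150 without WT library B (adjusted p = 0.0602 for each, all limma voom).

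The 3 features that fell were HTA7 (log2 fold change -2.94 ± 0.14 (SE), adjusted p = 0.000403), HTA6 (-1.75 ± 0.16, adjusted p = 0.0141) and AT3G58180, which encodes an ARM repeat protein (-1.13 ± 0.13, adjusted p = 0.0454, all limma voom). Without library B, the calls of HTA6 (adjusted p = 0.0763, limma voom) and of AT3G58180 (adjusted p = 0.134, limma voom) were lost. HTA6 also lost its call without WT library A, B or C (adjusted p = 0.0633, 0.120 and 0.105), and AT3G58180 without any one library (adjusted p from 0.0653 to 0.206, limma voom). RBL15, a gene of a rhomboid-like protein, passed the adjusted p (0.0272, limma voom) with a smaller change, as the ninth feature to do so (0.0457% of those tested), from 623, 596 and 631 in WT to 316, 305 and 336 in h2a.w-2, and lies close to AT3G58180. Its adjusted p was over 0.05 without any one library other than h2a.w-2 C (0.110 to 0.229, limma voom). Of all genes in the lists and families described below, HTA6 and HTA7 alone were called, so the values that follow are descriptions.

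**Figure D2:**
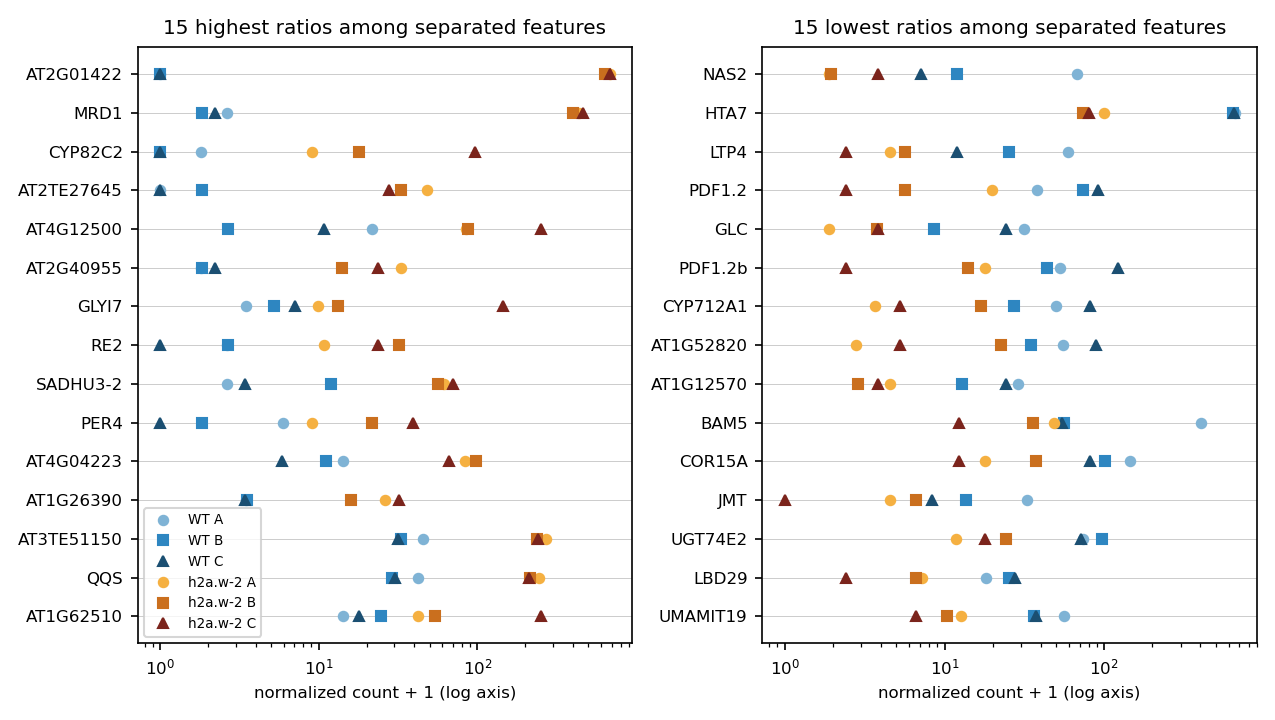
Normalized count plus 1 (log axis) in each of the 6 libraries, for the 15 separated features with the highest ratios (left) and the 15 with the lowest (right). Blue points are WT libraries and orange to brown points are libraries labelled h2a.w-2. AT2G01422, MRD1 and HTA7 have tight groups, whereas CYP82C2, GLYI7 and AT1G62510 are highest in h2a.w-2 library C.

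Genes of the circadian clock were higher in h2a.w-2. The plant clock is a loop of repressors in which CCA1 and LHY act around dawn, the pseudo-response regulators PRR9, PRR7 and PRR5 through the day, and TOC1 and the evening complex (ELF3, ELF4 and PCL1) later. Of 18 clock genes, all with a mean of at least 10, 17 had a positive ratio, 11 were separated upward and 0 downward. The median ratio was 0.76, 0.77 without library B and 0.45 without library C. At an unadjusted p under 0.05 limma voom counted 11 of them, against 11.6% of all features tested. Of all features tested, 10.3% were separated in each direction.

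PRR9 had the largest ratio of the clock genes (1.51), with 27.1, 14.3 and 13.4 in WT and 53.6, 30.8 and 77.6 in h2a.w-2. PRR5 was at 354, 431 and 394 in WT and at 654, 727 and 1197 in h2a.w-2. In both genes the 3 libraries labelled h2a.w-2 lay above WT, and library C was highest. GI, a regulator of flowering time and of the clock, was at 1887, 2399 and 2291 in WT and at 3015, 3266 and 4955 in h2a.w-2. CDF1, a Dof factor that delays flowering and is removed with the help of GI, was at 45.9, 35.4 and 42.6 in WT and at 61.7, 76.6 and 90.3 in h2a.w-2 (ratio 0.87). RVE1, a dawn factor, did not separate, with 33.6, 55.7 and 52.3 in WT and 51.9, 72.9 and 134 in h2a.w-2. AT3G54500, whose protein works as a coactivator of clock factors, was at 138, 147 and 123 in WT and at 227, 237 and 265 in h2a.w-2. The groups of this gene were tight and did not overlap. LHY, ELF3 and PRR3 had ratios of 0.10, 0.10 and -0.01 and did not separate.

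Stretches upstream of 3 clock genes are shown because these genes were separated together and because such promoters are known for short elements read by clock and light factors. Each is the 250 bases before the annotated gene start (RefSeq TAIR10.1), 5′ to 3′ on the gene's strand. Capitals mark AAAATATCT (the evening element), CACGTG (the G-box), CCGAC (the core of the cold and dehydration element) and TTGACC (a W-box core), each searched on both strands, so that AGATATTTT and GTCGG are reverse matches. No pair of these motifs overlaps in the stretches printed. PRR9 lies at chr2:19232357-19232606 (plus strand), PRR5 at chr5:8358547-8358796 (minus strand) and PCL1 at chr3:17182792-17183041 (plus strand).
PRR9: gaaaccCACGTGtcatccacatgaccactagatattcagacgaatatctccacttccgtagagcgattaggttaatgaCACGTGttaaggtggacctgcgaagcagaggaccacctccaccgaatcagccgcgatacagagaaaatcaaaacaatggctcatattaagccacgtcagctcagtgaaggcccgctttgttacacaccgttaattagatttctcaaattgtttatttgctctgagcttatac
PRR5: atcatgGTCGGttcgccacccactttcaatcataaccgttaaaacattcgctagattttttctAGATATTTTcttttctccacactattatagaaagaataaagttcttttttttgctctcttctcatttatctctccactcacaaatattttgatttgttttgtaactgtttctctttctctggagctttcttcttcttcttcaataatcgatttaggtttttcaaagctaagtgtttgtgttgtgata
PCL1: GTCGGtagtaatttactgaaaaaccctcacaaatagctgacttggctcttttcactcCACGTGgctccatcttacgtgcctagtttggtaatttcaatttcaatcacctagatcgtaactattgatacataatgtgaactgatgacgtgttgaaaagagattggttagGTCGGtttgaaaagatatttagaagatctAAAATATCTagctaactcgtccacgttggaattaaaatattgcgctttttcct
PRR9 held 2 G-boxes, PRR5 an evening element, and PCL1 both. Over the 18 clock genes, 7 (38.9%) held a G-box in this window, against 7.36% of the 19058 upstream windows of protein-coding genes tested, and 3 (16.7%) held an evening element, against 2.53%. Among the 156 protein-coding genes separated upward by at least 2-fold these shares were 7.69% and 4.49%. A match is a stretch of letters and no evidence of binding.

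Genes that respond to shade and phytochrome, a list put together after their values had been seen, were higher as well. Shade lowers active phytochrome, and PIF factors then switch on growth genes together with their own inhibitors. Of 16 members, 8 were separated upward (13 without library B), 0 downward, and the median ratio was 0.64 (0.79 without library B, 0.45 without library C). The upward share of all features tested was 10.3%, and it rose to 15.9% without library B. HFR1, an atypical bHLH protein that holds PIFs back, was at 497, 681 and 298 in WT and at 2278, 1442 and 2653 in h2a.w-2 (ratio 2.11). PIL1, another shade marker of the bHLH family, was at 66.4, 63.3 and 19.5 in WT and at 313, 121 and 164 in h2a.w-2 (ratio 1.98). HB-2, a homeodomain factor of shade avoidance, was at 201, 207 and 117 in WT and at 489, 310.2 and 615 in h2a.w-2. For these genes library B was the lowest of the h2a.w-2 group and still above WT. PIF4 itself had 281, 322 and 300.4 in WT and 434, 438 and 764 in h2a.w-2, and the auxin synthesis gene YUC8 had a ratio of 1.02. HAT1 and HAT2, relatives of HB-2, had ratios of 0.04 and 0.10.

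Genes that are known to be induced in darkness and by lack of sugar formed a further group, also chosen after values had been seen. Of 15 members tested, all had a positive ratio, with a median of 0.85. Of them, 7 were separated upward, against 10.3% of all features tested, and 0 downward. This group rested in part on h2a.w-2 library C, since without that library the median was 0.44, and without library B it was 0.95. ASN1, the dark-induced asparagine synthetase, was at 261, 994 and 499 in WT and at 1036, 1599.6 and 6171 in h2a.w-2 (ratio 2.33, 1.17 without library C). SEN1, a marker of dark and senescing leaves, was at 591, 1178 and 968 in WT and at 1653, 2318 and 7959 in h2a.w-2 (ratio 2.12, 1.12 without library C). BCAT-2, which acts in the breakdown of branched-chain amino acids, was at 75.5, 196 and 91.2 in WT and at 215, 319 and 973 in h2a.w-2. In these 3 genes library C was far above the other 5 libraries, and libraries A and B lay above WT by less. EXL2, an EXORDIUM-like gene of carbon-starved plants, was more even, with 2132, 2617 and 2227 in WT and 3303, 3756 and 6017 in h2a.w-2. CIPK20, a calcium-regulated protein kinase outside these lists, was at 22.1, 60.7 and 63.2 in WT and at 153, 182 and 457 in h2a.w-2. GLYI7, which encodes a glyoxalase I family protein, had one of the highest ratios of all (3.41) but rested on library C, with 2.46, 4.22 and 6.08 in WT and 8.94, 12.1 and 144 in h2a.w-2 (ratio 1.14 without it).

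**Figure D3:**
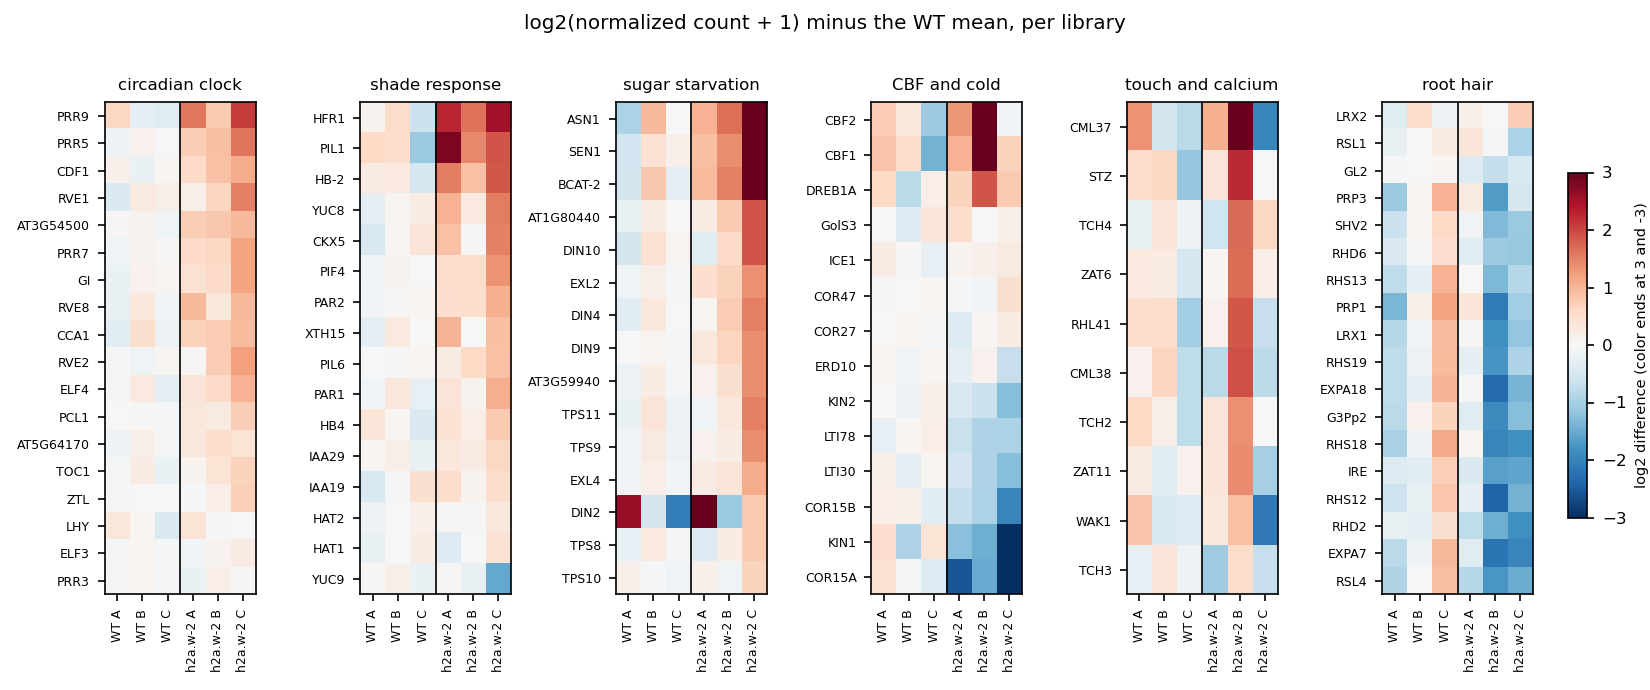
Color gives log2(normalized count + 1) minus the mean of the 3 WT libraries, from -3 (blue) to 3 (red), for each gene (row) in each library (column) of 6 lists. The clock, shade and sugar starvation lists are redder across the h2a.w-2 group, and the starvation list most in library C. The touch list and CBF1 and CBF2 are reddest in library B, and root hair genes are blue in libraries B and C and red in WT library C.

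Part of the cold-regulated genes were lower in h2a.w-2, whereas the CBF factors that drive them in the cold were not. Of 14 members, 6 were separated downward and 1 upward, and the median ratio was -0.13 (-0.27 without library B and -0.11 without library C). The share of all features tested was 10.3% in each direction. COR15A, which encodes a chloroplast protein that protects membranes from freezing, was at 144, 100.4 and 80.3 in WT and at 17.0, 36.4 and 11.3 in h2a.w-2 (ratio -2.27, -2.85 without library B and -1.98 without library C). KIN1, a small protein gene of cold and drought, was at 350.3, 129 and 327 in WT and at 102, 87.8 and 22.6 in h2a.w-2. Its neighbour KIN2 was at 2880.0, 2539 and 3286 in WT and at 2081, 1844 and 1186 in h2a.w-2. The groups did not overlap in these 3 genes, with library C the lowest in each. COR15B (ratio -1.14), LTI30 (-0.92) and LTI78 (-0.85) lay under WT in the same way, while COR47 (0.13) and ERD10 (-0.25) overlapped with WT. COR15A and COR15B, and KIN1 and KIN2, are similar tandem copies, and reads that aligned equally well to both copies were discarded before counting.

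CBF1 and CBF2 were far higher in h2a.w-2 library B than in any other library. CBF2 was at 50.9, 38.0 and 13.4 in WT and at 74.2, 473 and 28.2 in h2a.w-2, and its ratio of 2.46 became 0.57 without library B. CBF1 was at 33.6, 26.99 and 6.08 in WT and at 38.4, 259.8 and 29.6 in h2a.w-2 (0.59 without library B). DREB1A (CBF3) was separated upward by a narrow gap, at 19.7, 6.75 and 14.6 in WT and at 20.6, 49.5 and 22.6 in h2a.w-2.

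The windows upstream of COR15A (chr2:17712331-17712580 (minus strand)), LTI78 (chr5:21240467-21240716 (plus strand)) and LTI30 (chr3:18940393-18940642 (plus strand)) are shown because these genes were lower together and carry the CCGAC core that CBF proteins are known to bind. Capitals are as above.
COR15A: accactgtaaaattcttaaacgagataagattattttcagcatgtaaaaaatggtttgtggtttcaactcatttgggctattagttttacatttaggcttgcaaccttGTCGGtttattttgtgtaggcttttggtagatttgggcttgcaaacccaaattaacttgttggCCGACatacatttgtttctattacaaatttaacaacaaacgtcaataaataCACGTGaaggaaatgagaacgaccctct
LTI78: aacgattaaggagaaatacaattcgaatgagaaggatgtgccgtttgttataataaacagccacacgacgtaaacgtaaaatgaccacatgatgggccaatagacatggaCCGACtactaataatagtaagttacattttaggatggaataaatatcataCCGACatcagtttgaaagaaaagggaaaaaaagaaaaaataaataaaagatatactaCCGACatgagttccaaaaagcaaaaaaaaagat
LTI30: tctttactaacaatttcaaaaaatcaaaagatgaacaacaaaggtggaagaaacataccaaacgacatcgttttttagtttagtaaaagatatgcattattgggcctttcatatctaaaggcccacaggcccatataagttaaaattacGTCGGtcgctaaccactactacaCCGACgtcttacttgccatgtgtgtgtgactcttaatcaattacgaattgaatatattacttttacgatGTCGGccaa
COR15A held CCGAC 2 times, and LTI78 and LTI30 held it 3 times each. Of the 14 list members 4 (28.6%) held CCGAC in this window, against 13.0% of all 19058 windows and 13.5% of the 155 protein-coding genes separated downward by at least 2-fold.

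Lipid transfer proteins and genes of the abscisic acid response were lower in part. LTP4 and LTP3, which encode small secreted lipid-binding proteins and are induced by abscisic acid and drought, were at 58.2, 24.5 and 10.9 and at 145, 55.7 and 157 in WT. In h2a.w-2 they were at 3.58, 4.67 and 1.41 and at 37.5, 55.1 and 9.87, with ratios of -2.93 and -1.77. They are similar neighbours, and reads common to both were discarded, so that their counts rest on the stretches that differ. LP1, the abundant LTP1, was at 6709, 4345 and 4954 in WT and at 3715, 3809 and 2557 in h2a.w-2, while LTP2 beside it had a ratio of 0.53. Of 11 LTP genes tested, 4 were separated downward and 0 upward (median -0.12, -0.15 without library B and -0.07 without library C). Of all features tested, 10.3% were separated in each direction, and 13.1% downward without library C. In the abscisic acid list 4 of 14 were separated downward (6 without library C) and 0 upward, and the median ratio was -0.10 (-0.08 without library B and -0.18 without library C). Among the separated was the phosphatase gene HAI1, at 167, 71.7 and 117 in WT and at 55.4, 31.8 and 50.8 in h2a.w-2. RAB18, a dehydrin gene, had a ratio of 1.57, and 0.77 without library C (33.1, 60.7 and 152 in h2a.w-2 against 37.7, 28.7 and 14.6 in WT), and NCED3, the key enzyme of abscisic acid synthesis, had a ratio of -0.14. LEA4-5, a late embryogenesis abundant protein gene, was at 73.8, 19.4 and 46.2 in WT and at 15.2, 14.9 and 7.05 in h2a.w-2.

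Touch-induced genes and the stress-induced ERF and ZAT factors followed single libraries. Touch and wounding raise calmodulin-like genes (TCH2, TCH3), ZAT zinc fingers and ERF factors within minutes. In h2a.w-2 library B these lists stood at medians of 1.69 (touch and calcium, 10 genes), 1.53 (stress-induced ERF and DREB, 13 genes) and 1.77 (ZAT, 6 genes) above the WT mean on the log2 scale. In library C they stood at -0.70, -0.66 and 0.09. No member of the 3 lists was separated in either direction. STZ (ZAT10) was at 749.7, 794 and 231 in WT and at 671, 2426 and 518 in h2a.w-2, and RRTF1, an ERF of redox responses, was at 16.4, 51.4 and 1.22 in WT and at 10.7, 298 and 2.82 in h2a.w-2. Median ratios of 0.65, 0.55 and 0.74 became -0.15, -0.39 and -0.09 without library B, so that their direction rested on that library. MYB15, a factor of cold and defence, had the same shape, with 50.9, 25.3 and 8.51 in WT and 37.5, 289 and 21.2 in h2a.w-2.

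Single defence genes, picked here from those separated, were higher in h2a.w-2, while the indole glucosinolate and camalexin list had a median ratio near 0. CYP82C2, which makes the hydroxylated indole cyanogen 4-OH-ICN, had 1 read in WT and 8.05, 16.8 and 95.9 normalized counts in h2a.w-2, at least 13.98-fold higher than 3 reads per WT library (ratio 5.02, 3.40 without library C). CYP71A12, which makes indole-3-acetonitrile compounds for 4-OH-ICN and camalexin, was at 42.7, 10.96 and 24.3 in WT and at 143, 219 and 93.1 in h2a.w-2. Its close relative CYP71A13, a camalexin enzyme, was at 6.56, 48.1 and 3.65 in WT and at 6.26, 1.87 and 0 in h2a.w-2, and PAD3, the last step to camalexin, had a ratio of -0.61. With all libraries, 2 of 20 genes of the indole glucosinolate and camalexin list separated upward and 0 downward. The share of all features tested was 10.3% in each direction. Without library C, 8 of the 20 lay above WT, against 13.4% of all features. The median ratio of the list was -0.0015 (-0.06 without library B and 0.13 without library C). AT1G26380 (FOX1) was left out of this list, since symbol and locus were not paired, and is given below. FRK1, a receptor kinase gene induced by flagellin, was at 71.4, 16.9 and 26.8 in WT and at 227, 158 and 95.9 in h2a.w-2.

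Berberine bridge enzyme-like genes, oxidases of which some act on indole cyanogens or on cell wall fragments, were separated upward in 5 of 18 (27.8%) and downward in 0, and 4 of the 5 by at least 2-fold. AT1G26390 was at 2.46, 2.53 and 2.43 in WT and at 25.03, 14.9 and 31.0 in h2a.w-2 (at least 8.22-fold higher), AT1G30720 at 18.9, 27.8 and 29.2 and 66.2, 104 and 161, and AT1G26380 at 10.7, 25.3 and 31.6 and 89.4, 86.0 and 49.4. AT1G26380, AT1G26390 and AT1G26420 lie near each other on chromosome 1 and are similar in sequence. Class III peroxidases, secreted enzymes that make or use hydrogen peroxide in the cell wall, held 4 of 10 members separated upward by at least 2-fold. PER4 was at 4.92, 0.843 and 0 in WT and at 8.05, 20.6 and 38.1 in h2a.w-2, PRX52 at 8.20, 4.22 and 3.65 and 22.3, 45.8 and 19.7, and AT5G64120 at 1019, 456 and 625 and 2027, 2258 and 2966. The family is larger than its 10 members matched by symbol. Over 49 genes annotated as peroxidase superfamily protein, 10 were separated upward and 7 downward, of which 5 and 3 by at least 2-fold. Their median ratio was negative, at -0.38 (-0.25 without library B and -0.55 without library C). Over all features tested, 10.3% were separated in each direction, and 0.925% upward and 0.834% downward by at least 2-fold.

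In the AZI1 cluster on chromosome 4, whose hybrid proline-rich proteins act in systemic immunity, AT4G12500 was at 20.5, 1.69 and 9.73 in WT and at 84.0, 86.0 and 249.6 in h2a.w-2, and AZI1 at 1242, 517 and 507 and 1927, 1374 and 1941. EARLI1, in the same cluster, had 317, 102 and 246 in WT and 517, 377 and 220.0 in h2a.w-2, with overlap. AT1G62510, a gene of the same protein class on chromosome 1, was at 13.1, 23.61 and 17.0 in WT and at 41.1, 53.3 and 249.6 in h2a.w-2 (ratio 2.61, 1.35 without library C).

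Part of the surface receptor genes were higher by small amounts. Receptor-like proteins, which carry leucine-rich repeats and lack a kinase, were separated upward in 12 of 39 and downward in 1, with a median ratio of 0.28 (0.29 without library B, 0.26 without library C). RLP21 was at 13.1, 8.43 and 9.73 in WT and at 44.7, 46.7 and 28.2 in h2a.w-2 and had the largest ratio of them (1.84). Among 177 RefSeq product names shared by at least 10 features tested, the leucine-rich receptor-like protein kinases had the largest share separated upward, 9 of 22 (40.9%), with 0 downward and none by 2-fold. FLS2, the flagellin receptor, was at 1015, 1188 and 882 in WT and at 1417, 1338 and 1296 in h2a.w-2, BRI1, the brassinosteroid receptor, at 1909.6, 2271 and 1782 and 2382, 2284 and 3426, and CLV1, a receptor of the shoot meristem, at 1203, 1355 and 1025 and 1390.2, 1449 and 1836. Leaving out library B or C left 10 and 9 of the 22 above WT. Under the separate product name leucine-rich repeat protein kinase family protein, 16 of 98 (16.3%) were separated upward and 6 downward (median 0.03). Over all features tested, 10.3% were separated in each direction. S-locus lectin kinases followed with 6 of 18 (33.3%) upward and 1 downward. Cysteine-rich receptor kinases were separated upward in 4 of 32 and downward in 1, with a median ratio of 0.12, and without library B in 4 and 6 with a median of -0.11. Wall-associated kinases were separated upward in 3 of 11 and downward in 1 (median 0.0049). CRK13, a cysteine-rich receptor kinase of defence and the member with the largest ratio, was at 27.9, 22.8 and 29.2 in WT and at 77.8, 126 and 62.1 in h2a.w-2.

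The PDF1.2 defensins were lower, whereas the jasmonate and salicylate lists held separated genes at about the share of all features. PDF1.2 and PDF1.2b, antifungal peptide genes driven by ethylene and jasmonate, were at 36.9, 72.5 and 90.004 and at 51.7, 43.0 and 122 in WT. In h2a.w-2 they were at 18.8, 4.67 and 1.41 and at 17.0, 13.1 and 1.41, with ratios of -2.86 and -2.67. They are near-identical, and reads common to both were discarded. PDF1.4 of the same family was separated upward (5.74, 7.59 and 4.87 in WT, 8.94, 44.8 and 18.3 in h2a.w-2). Of 26 jasmonate genes, 3 were separated downward (5 without library B) and 1 upward (median -0.19, -0.47 without library B and -0.09 without library C). VSP1, a vegetative storage protein gene, was at 192, 280.0 and 232 in WT and at 122, 129 and 111 in h2a.w-2, CORI3, a C-S lyase gene, at 340.4, 337 and 461 and 207, 215 and 29.6, and VSP2 had a ratio of -0.77. The JAZ repressors JAZ1, JAZ5 and JAZ6 had ratios of 0.07, -0.03 and 0.03. JMT, which methylates jasmonic acid, was at 32.0, 12.7 and 7.30 in WT and at 3.58, 5.61 and 0 in h2a.w-2. In the salicylic acid list 2 of 18 were separated downward and 0 upward, but 11 had a positive ratio and the median was 0.21 (-0.20 without library B and 0.14 without library C). PR1 varied within both groups (77.1, 0 and 3.65 in WT, 20.6, 87.8 and 49.4 in h2a.w-2).

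Glutathione S-transferases, which join glutathione to toxic or reactive compounds, were separated downward in 11 of 42 and upward in 1, with a median ratio of -0.31 (-0.39 without library B, -0.24 without library C). For these and the families that follow, the share of all features tested was 10.3% in each direction. GSTU25 was at 225, 286 and 329.6 in WT and at 151, 64.5 and 46.5 in h2a.w-2, and GSTU22 at 109.9, 69.2 and 102 and 29.5, 28.0 and 33.9. UGT74E2, which glucosylates indole-3-butyric acid, was at 72.2, 95.3 and 70.5 in WT and at 10.7, 23.4 and 16.9 in h2a.w-2, whereas UGT76E2 was separated upward (3.28, 5.90 and 3.65 in WT, 25.9, 15.9 and 21.2 in h2a.w-2). Over 53 UGT genes, 9 were lower and 5 higher among the separated (median -0.23, -0.20 without library B and -0.16 without library C). Cytochromes P450 had no common direction, with 19 lower and 23 higher of 162 (median -0.05, -0.06 without library B and -0.07 without library C). CYP712A1 was at 49.2, 26.1 and 80.3 in WT and at 2.68, 15.9 and 4.23 in h2a.w-2 (ratio -2.62, -3.57 without library B). AT1G52820, a gene of the 2-oxoglutarate dioxygenase family, was at 54.1, 33.7 and 87.6 in WT and at 1.79, 21.5 and 4.23 in h2a.w-2. All 3 libraries labelled h2a.w-2 lay under WT for both genes, and library B was nearest to it. AT1G12570, an oxidoreductase gene, was at 27.9, 11.8 and 23.1 in WT and at 3.58, 1.87 and 2.82 in h2a.w-2, and UMAMIT19, a gene of an amino acid transporter family, at 55.0, 35.4 and 36.5 and 11.6, 9.34 and 5.64.

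Pathways of secondary metabolism differed among themselves. Of all features tested, 10.3% were separated in each direction, and 16.2% downward without library B. In the aliphatic glucosinolate list, 3 of 12 were separated downward (6 without library B), led by CYP79F1, which makes the aldoxime precursors (560.3, 739.6 and 883 in WT, 369, 482 and 183 in h2a.w-2), while its tandem copy CYP79F2 was separated upward (232, 213 and 221 and 289.7, 291 and 271). Of 15 anthocyanin and flavonoid genes, 14 had a negative ratio (median -1.01, -1.38 without library B and -0.75 without library C) and 1 was separated. WT library A held most of this difference. DFR, an anthocyanin enzyme, was at 365, 67.5 and 1.22 in WT and at 8.94, 18.7 and 1.41 in h2a.w-2, and TT4, the chalcone synthase, at 2488, 504 and 1045 and 489.9, 589 and 188. Both groups overlapped for these genes. GLC, a gene of an acyltransferase family protein, was at 30.4, 7.59 and 23.1 in WT and had 6 reads in h2a.w-2, at least 6.28-fold lower than WT by 3 reads per library.

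Root hair genes were low in libraries B and C of the group labelled h2a.w-2 and high in WT library C. RHD6 and RSL4 are bHLH factors that start hair growth, and their targets loosen the wall (EXPA7, EXPA18) or make reactive oxygen (RHD2). Of 18 genes, 17 had a negative ratio (median -1.03, -0.73 without library B and -0.88 without library C), but 3 were separated. RSL4 was at 34.5, 64.9 and 123 in WT and at 35.8, 18.7 and 22.6 in h2a.w-2, EXPA7 at 87.8, 137 and 302 and 119.8, 32.7 and 38.1, and RHD2 at 219.8, 203 and 353 and 148, 89.7 and 69.1. The spread among the WT libraries of EXPA7 was wider than the difference between the group means. Library A of the h2a.w-2 group lay inside the WT range for EXPA7 and most hair genes. The 11 root markers moved in the same libraries (median -0.54, 0 separated), for example TIP2;3, a root aquaporin gene, with 64.8, 85.2 and 170.3 in WT and 72.4, 26.2 and 31.0 in h2a.w-2. Fewer root cells and less of these RNAs per cell cannot be told apart in whole seedlings, and the part of root content in these values was not tested. LBD29, a factor of lateral root formation, was at 17.2, 24.5 and 26.8 in WT and at 6.26, 5.61 and 1.41 in h2a.w-2, and EXPA17, an expansin gene of lateral roots, at 35.3, 21.9 and 57.2 and 18.8, 5.61 and 5.64.

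**Figure D4:**
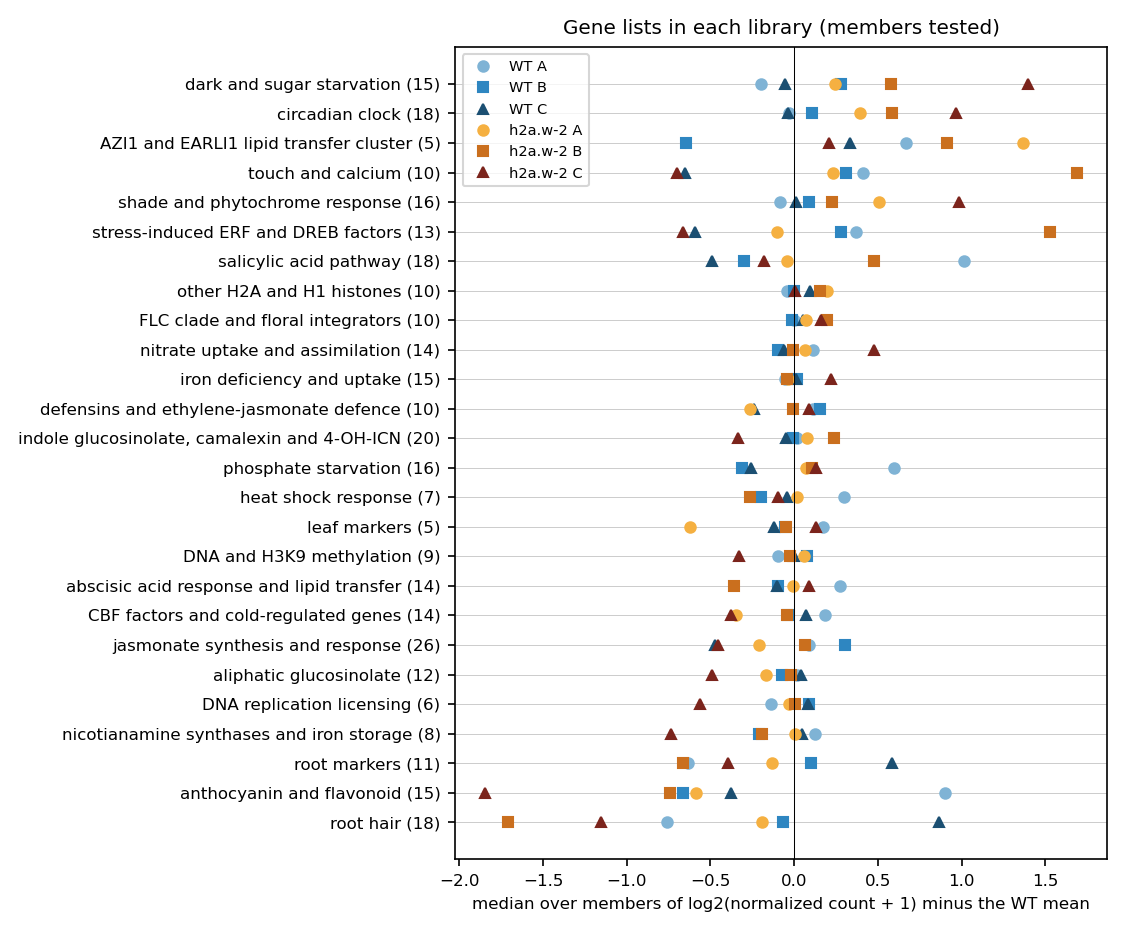
Each row is a gene list with its number of members tested, and each point is one library. The horizontal axis is the median over members of log2(normalized count + 1) minus the mean of the 3 WT libraries. The 3 libraries labelled h2a.w-2 lie right of all WT libraries for the clock and shade lists, library B stands far right for touch and stress-induced ERF genes, and WT library A stands apart for the anthocyanin list.

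Iron genes differed one by one. NAS2, which makes the metal chelator nicotianamine, had the lowest ratio of all separated features (-3.50), with 66.4, 10.96 and 6.08 in WT and 4 reads in the 3 h2a.w-2 libraries together, at least 8.59-fold lower. WT library A was far above the other WT libraries. NAS1, NAS3 and NAS4 had ratios of -0.63, 0.52 and 0.52 and overlapped with WT. FER1, the main leaf ferritin gene, was at 5032, 4954 and 6305 in WT and at 4356, 3923 and 3237 in h2a.w-2. AT3G13610 (F6′H1), the entry to iron-mobilising coumarins, was at 304, 319 and 473 in WT and at 199, 158 and 178 in h2a.w-2. COPT2, a copper transporter gene, was lower (ratio -0.85), and FRO3, a mitochondrial ferric reductase gene, was higher (ratio 0.54). Of 15 iron deficiency genes tested, 4 were separated downward and 2 upward (median 0.08, 0.09 without library B and -0.0053 without library C). The share of all features tested was 10.3% in each direction.

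Part of the ribosomal protein genes were lower by small amounts. Genes named RPL or RPS for ribosomal proteins were separated downward in 17 of 52 and upward in 1, with a median ratio of -0.18 that stayed at -0.19 without library B and -0.15 without library C. RPL10B was at 179, 167 and 195 in WT and at 144, 127 and 128 in h2a.w-2. Of 17 heat shock protein genes, chaperones of protein folding, 7 were separated downward and 0 upward, led by HSP60, a mitochondrial chaperonin gene (1529.8, 1661 and 1936 in WT, 1370.5, 1168 and 855 in h2a.w-2). Of 49 nuclear genes of photosystems, antennae and the Rubisco small subunit, 40 had library values. Of these 40, 38 had a negative ratio (median -0.19), but only 5 were separated downward (16 without library C) and 1 upward. Over all features tested, 10.3% were separated downward (13.1% without library C) and 10.3% upward. CAB2, an antenna gene, was at 4827, 3001 and 3392 in WT and at 2951, 2285 and 2379 in h2a.w-2. Small nuclear ribonucleoprotein genes, which act in splicing, were under WT in 6 of 22 (27.3%) and above it in 0.

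Growth and transport genes were higher in part. SAUR genes, small auxin-induced genes of cell expansion, were separated upward in 10 of 63 and downward in 6, with 6 and 2 by at least 2-fold. Over all features tested, 10.3% were separated in each direction, and 0.925% upward and 0.834% downward by at least 2-fold. SAUR19 was at 47.6, 44.7 and 60.8 in WT and at 152, 80.4 and 157 in h2a.w-2, and SAUR23 at 87.8, 72.5 and 65.7 and 198, 111 and 196. In both of these genes library B was closest to WT. The family's median ratio was 0.27. Without library B, 24 were separated upward and 6 downward with a median of 0.32, and without library C 12 and 10 with a median of 0.09. The shares of all features tested were 15.9% upward and 16.2% downward without library B, and 13.4% and 13.1% without library C. Nitrate and peptide transporter genes were separated upward in 7 of 28 and downward in 0 (median 0.20, 0.28 without library B and 0.09 without library C). NRT2.5, a high-affinity nitrate transporter gene of starved plants, was at 6.56, 17.7 and 14.6 in WT and at 25.03, 66.3 and 21.2 in h2a.w-2, and AT2G26690 (NPF6.2) at 1024, 978 and 865 and 1489, 1232 and 1520.4. None of 16 phosphate starvation genes was separated, with a median ratio of -0.02. BAM5, a beta-amylase gene, was at 404, 54.8 and 53.5 in WT and at 47.4, 34.6 and 11.3 in h2a.w-2, where WT library A stood alone.

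Apart from HTA6 and HTA7, no gene of the histone and DNA methylation lists was called by limma voom. An unadjusted p under 0.05 (limma voom) was found for 3 of 10 and 1 of 9, against 11.6% of all features tested. HIS1-3, the drought-induced linker histone H1.3, was at 629, 681 and 542 in WT and at 1073, 1078 and 1549 in h2a.w-2 (ratio 1.00, unadjusted p = 0.000413 and adjusted p = 0.124, limma voom). Of 10 other H2A and H1 genes, 3 were separated upward (6 without library C), 0 downward, and HTA2 (ratio 0.30) and RAT5 (HTA1, 0.46) encode canonical H2A. The linker histone genes H1.1 and H1.2 were left out of this list, since symbol and locus were not paired. Of all features tested, 10.3% were separated in each direction. The upward shares without library B and without library C were 15.9% and 13.4%. Genes annotated as histone superfamily protein were separated upward in 9 of 29 (31.0%) and downward in 2. One of them, AT5G02570, an H2B gene that follows HTA12 on chromosome 5 and was singled out after its values were seen, was at 3.28, 8.43 and 13.4 in WT and at 27.7, 29.0 and 21.2 in h2a.w-2. It was high in library B too, where HTA12 was at the WT level. Of 9 genes of DNA and H3K9 methylation, 1 was separated, the DNA glycosylase gene DML1 (ROS1), which removes DNA methylation, at 817, 980.0 and 895 in WT and at 497, 495 and 413 in h2a.w-2 (ratio -0.94, adjusted p = 0.0676, limma voom). MET1, CMT3, CMT2 and SUVH4 had ratios of -0.04, -0.22, -0.09 and 0.04. The floral repressor FLC was at 26.2, 18.6 and 13.4 in WT and at 29.5, 59.8 and 46.5 in h2a.w-2, and 4 of 10 genes of the FLC list were separated upward and 1 downward (5 and 1 without library B, 4 and 2 without library C).

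Of the 19674 features tested, 101 were TEs and 93 were RefSeq pseudogenes, a class that includes TE genes and was not split further. Of the 101 TEs, 5 were separated upward by 2-fold and 2 downward (median ratio 0.15). Of the 93 pseudogenes, 8 were separated upward by 2-fold and 1 downward (median ratio 0.16). Over all features tested these shares were 0.925% upward and 0.834% downward. SADHU3-2, a non-coding retroposon, was at 1.64, 10.96 and 2.43 in WT and at 60.8, 55.1 and 69.1 in h2a.w-2, and RE2, a copia-like retrotransposon gene, at 1.64, 1.69 and 0 and 9.83, 30.8 and 22.6 (at least 7.32-fold higher). Among other RNA genes 13 of 421 were separated upward and 6 downward by 2-fold. AT4G04223 was at 13.1, 10.12 and 4.87 in WT and at 82.2, 97.2 and 64.9 in h2a.w-2, and AT2G40955, an uncharacterized protein gene, at 0.82, 0.843 and 1.22 and 32.2, 13.1 and 22.6 (at least 7.85-fold higher).

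Lower genes formed long runs on chromosome 3. In order along the chromosome, runs of 9 and of 14 neighbouring genes under WT were found on chromosome 3, whereas the other 12 runs of 4 or more held 4 genes each. The chromosome 3 stretch (AT3G57965 to AT3G58470, chr3:21464619-21628569, RefSeq TAIR10.1) was bounded after its values were seen. It held 27 genes tested, of which 25 were separated downward with a median ratio of -0.95 (-0.93 without library B, -0.97 without library C), and it includes AT3G58180, RBL15 and LBD29. Its 40 flanking genes had a median ratio of 0.01. A shorter stretch on chromosome 1 (AT1G64450 to AT1G64530, chr1:23941598-23963083) was also bounded after its values were seen. It was not among the runs of 4 or more, since AT1G64500 inside it (ratio 0.24) did not separate. Within the edges so chosen, 6 of 7 genes were separated downward. The median ratio was -0.97 (-0.96 without library B, -0.91 without library C), against 0.05 in its 40 flanking genes. RPN12a, a subunit of the proteasome's regulatory particle, was at 1459, 1700.2 and 2163 in WT and at 871, 834 and 799.7 in h2a.w-2 (adjusted p = 0.0747, limma voom). AT1G64510, annotated as a ribosomal protein-like translation factor, was at 2628, 3113 and 2497 in WT and at 1352, 1571 and 1543 in h2a.w-2, and AT1G64490, a DEK chromatin protein gene, at 165, 186 and 257 and 86.7, 86.0 and 69.1. In these genes the libraries labelled h2a.w-2 were alike and did not overlap with WT.

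**Figure D5:**
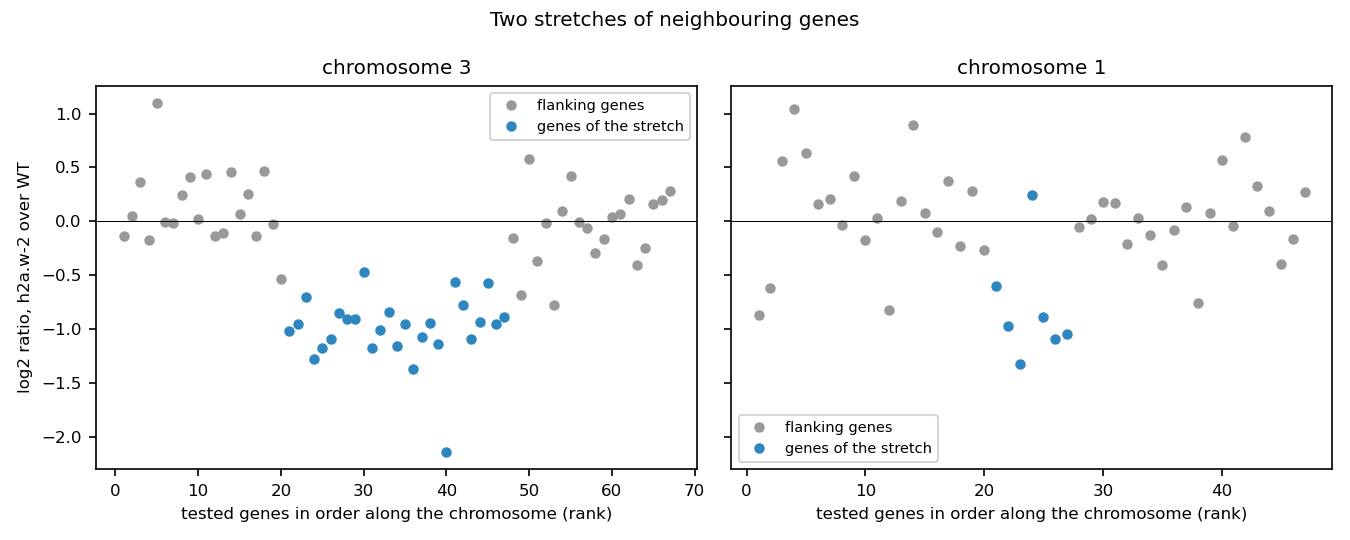
Log2 ratio of h2a.w-2 over WT for tested genes in order along chromosome 3 (left) and chromosome 1 (right), with 20 flanking genes on each side in grey. The 27 blue genes on chromosome 3 lie around a median of -0.95 and 6 of the 7 blue genes on chromosome 1 lie under 0, while the flanking genes scatter around 0.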

How the data were processed

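RNA was sequenced from 3 WT and 3 h2a.w-2 libraries. The authors trimmed reads with Trim Galore 0.5.0, aligned them to TAIR10 with STAR (2.7.0c per the labels), dropped multi-mapping reads and probable PCR duplicates, and counted reads per Araport11 gene and TE with htseq-count. The deposited values are a signal, the mean of the counts of a group after division by the authors' size factors. Further columns hold the authors' fold changes and p-values and were not used.

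The digits of these means were used to work back to whole reads per library. Exactly 1 set of reads fitted 29927 of 29961 features, and the WT reads of 29936 features came out alike from the table of the other mutant line, with 0 that disagreed. The 34 features without a set were abundant (a group mean of 9870 or more) while the other features held 93.7% of the summed means of either group. Recovered libraries carry no replicate number, so they were lettered.

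Features with an overall mean of at least 10 were tested with limma voom (limma 3.58.1 in R 4.3.3, the authors' size factors, equal library weights), with Benjamini-Hochberg adjustment over all 19674 and calls at an adjusted p under 0.05 and a log2 fold change beyond 1. The script was tested on simulated reads with an assumed spread, which may differ from that of these libraries. It called 16 of 50 features simulated at a log2 change of 1, which is the threshold itself, and 47 of 50 at 1.5. Of 19474 features simulated without a change it called 4. Seedlings were picked at random for each replicate from 1 or more trays, and whether replicates were grown separately is not given in the sources used here, so p-values measure the spread between these libraries, which may be technical. Ratios used a pseudocount of 1 on means. A group with no library above 3 reads was set to 3 reads per library for a bound, which covers counting error only.

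The 27 gene lists, the 29 families matched by symbol and the rule were chosen with earlier results of these data known, and 2 further lists were added after values were seen. Of the listed loci, 14 were left out of the list counts, because symbol and locus were not paired in the reference or the table did not hold them. Genes named were those called, the 15 highest and lowest separated features, and up to 5 members with the largest ratio of each list or family. Other genes named (clock, shade, cold, receptor, stretch and neighbour genes with smaller ratios, and CIPK20, FRK1, LEA4-5) were picked after their values were seen. Gene positions, product names and upstream bases came from RefSeq (TAIR10.1). Alternatives were other minimum means, pseudocounts, scalings, weights and fits, and leaving out each library.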

Additional observations from a re-analysis of the deposited data

How the results depend on the processing

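The counts of called features depended on how the spread was estimated. Library quality weights gave 18 features up and 8 down, and adding the libraries of h2a.w-1, the other mutant line, to the fit gave 25 and 13. Each of these fits kept the 5 and 3 reported. Leaving out 1 library gave 2 to 7 up and 1 to 3 down. Without a minimum fold, 5 and 4 passed. Other minimum means, total or upper quartile scaling, limma trend and robust empirical Bayes left 4 to 7 up and 2 to 4 down. The 2-fold separated features numbered 337 upward and 263 downward at a minimum mean of 1, and 106 downward at a minimum mean of 25. Leaving out 1 library gave 172 to 342 upward and 141 to 592 downward. No direction of a called feature was reversed. Over the named genes, 1859 alternative fold changes kept their side of the adjusted p threshold and 22 lost it. Only the 9 features that passed an adjusted p of 0.05 in the main fit (limma voom) could lose it. Most of the 1859 belong to genes that never passed, so this total does not measure how stable the calls were. Of the list medians under each alternative, 479 moved by less than the spread of that median between libraries and 25 by more. That spread includes the library left out, so a list that rests on 1 library can change sign and still move by less. The touch and calcium list did so (0.65, and -0.15 without library B). The median ratio of all features stayed between -0.0227 and 0.0154 with other pseudocounts, with total scaling and with each library left out. The cause of the moves was not tested.

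No paired analysis was possible because the recovered libraries carry no replicate numbers. Depth of 6090336 to 9839709 reads per library limits features near a mean of 10.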
